A study of Rattus norvegicus with 12 samples.

Results

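The genes described here are 7 genes used as markers of peripheral glia and Schwann cells, Scn7a, Metrn, Sox10, S100b, Pmp22, Gfap and Cdh19. Their members on the array were found by gene symbol or older name in the platform annotation, and all probe sets of each gene were taken. Of the 7 genes, 6 had a probe set with a single symbol, with 2 probe sets for Pmp22 and 1 for each of the others, so 7 probe sets of the 31042 tested and 6 genes of 14217 are described. Cdh19, a cadherin of Schwann cell precursors, was not analysed here. Scn7a and Metrn were picked because an earlier pass over these same arrays had found large differences from group D, in group C for Scn7a and in group B for Metrn, and the other members were added as known glial genes with those results in view. The levels against group D are therefore given as a description, with no test. Scn7a and Metrn are likewise given with no test between groups B and C, whose values entered their choice. Tests are given for Pmp22, S100b and Gfap between groups B and C, and for other glial genes.

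RNA was taken from the mesenteric lymph nodes (MLN) of Wistar rat pups at day 21 and hybridized to the Affymetrix Rat Genome 230 2.0 array, 1 pup to an array, with 3 pups in each of 4 groups. Conjugated linoleic acid (CLA) is a class of isomers of linoleic acid. Dams of group A ate a diet with 1% CLA over 2 weeks of gestation and over suckling, so that their pups had 5 weeks of CLA from the dam. Dams of group B ate it in gestation alone and their pups received CLA by oral gavage in suckling, also 5 weeks in total. Group C had the gavage in suckling alone, for 3 weeks, from dams on the standard diet, and group D was the reference on the standard diet with 0 weeks of CLA. All pups were reared by lactating dams, and no gavage is described for groups A and D, so CLA by gavage and the gavage itself cannot be told apart. The pups were chosen at random within a group, and their litters are not given in the sources used here, so p-values measure the spread between these arrays.

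Peripheral glia accompany nerve fibres and the cells of peripheral ganglia. Schwann cells wrap or ensheath axons, and the nerves that enter lymph nodes along the blood vessels carry mostly non-myelinating Schwann cells, while the nerve plexuses of the gut wall hold enteric glia. Sox10 is the transcription factor that holds these cells in their lineage, S100b is a calcium-binding protein, Gfap an intermediate filament, Pmp22 a membrane protein of compact myelin, Scn7a an atypical sodium channel first described from glia, and Metrn (meteorin) a secreted factor that acts on glial differentiation and axon growth.

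The label rests on few bright probe sets. A probe set was taken as above background in an array where it exceeded the 95th percentile of the signals of 27 spike controls left unspiked, which lay between 2.33 and 3.20 on the log2 scale. Sox10, the most specific marker, was above it in 6 of 12 arrays, Metrn in 9, and Scn7a, S100b, Gfap and both probe sets of Pmp22 in 12. Gfap lay close above it, between 2.77 and 4.30. S100b and Pmp22 are also made by other cells of a lymph node, such as dendritic cells and fibroblasts, so the genes are called by their names below and not taken as a measure of glia. Among the other glial markers Fabp7 and Foxd3 were above background in 0 arrays. All 8 lymphocyte markers measured were above background in all arrays.

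The arrays differed in ways that touch these genes. Medians of the deposited signal ran from 27.6 to 32.9 (group A), 19.3 to 30.9 (B), 20.2 to 27.0 (C) and 34.3 to 38.5 (D), and values were therefore quantile normalized and are given on the log2 scale. Within group D, replicate 3 stood apart. The score of 9 smooth muscle markers, the mean of their log2 levels each centred on 12 arrays, was 2.36 and 2.35 in replicates 1 and 2 of group D and -0.22 in replicate 3. Values without this array are given for the members and for some of the other genes named. The ratio of 3′ to 5′ hexokinase signal, a sign of RNA integrity, was 2.84 to 4.96 in group A, and 1.62 to 3.24, 1.82 to 2.62 and 1.84 to 2.53 in groups B, C and D. The same ratio for actin was highest of the 12 arrays in replicate 3 of group D, at 1.91. The part of these ratios in the results was not tested.

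Scn7a was low in every array of the 3 CLA groups and high in every array of group D. Its log2 signal (probe set 1370973_at) was 4.81, 5.11 and 5.24 in group A. It was 5.38, 5.62 and 6.32 in group B. It was 5.00, 4.87 and 6.27 in group C, against 7.35, 8.65 and 8.57 in group D. No array of groups A, B or C reached the lowest of group D. Group C overlapped with both A and B, while every array of group A lay below group B, and replicate 3 of group D was as high as replicate 2. The log2 difference from group D was -3.14 ± 0.41 (SE, n = 3) for A, -2.42 ± 0.41 for B and -2.81 ± 0.41 for C, or 8.80-fold, 5.34-fold and 7.02-fold lower. Without replicate 3 of group D these differences were -2.95, -2.23 and -2.62. On the deposited scale, before any normalization, the intensities ran from 28.9 to 44.0 (group A), 44.5 to 53.3 (B), 23.3 to 58.1 (C) and 237.7 to 502.6 (D). In bulk tissue, fewer cells that make a transcript and less of it per cell cannot be told apart.

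Metrn had another pattern, with group B lowest, group C between, and groups A and D overlapping. Its log2 signal (1376263_at) was 5.28, 4.90 and 4.96 in group A and 5.04, 5.56 and 4.59 in group D. It was 3.62, 3.81 and 3.92 in group C. In group B it was 0.48, 2.11 and 1.26, within background in all 3 arrays. The arrays of group C lay below groups A and D and above group B. The log2 difference from group D was -0.01 ± 0.45 (SE, n = 3) in group A and -1.28 ± 0.45 in group C. For group B only a bound can be given, at least 5.32-fold lower than group D, where the background of each array stands for the unmeasured level. The signal was low throughout, 29.5 to 58.5 in deposited intensity in group D. Without replicate 3 of group D the difference was -0.25 in group A and -1.52 in group C.

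Sox10 followed the order of Metrn at a level near background. Its log2 signal (1368439_at) was 2.78, 3.98 and 3.53 in group A, above background in 3 of 3 arrays. It was 2.23, 3.85 and 3.07 in group D, above background in 2. It was 1.13, 1.26 and 2.57 in group C, above background in 1, and 0.79, 2.00 and 1.07 in group B, above background in 0. The arrays of group B lay below all of group D, which gives a bound of at least 1.32-fold, and groups A and C overlapped with group D. Without replicate 3 of group D, 1 of the 2 arrays left in that group was above background.

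Pmp22 was brightest in group D and lowest in group C. Its brighter probe set (1370247_a_at) read 9.23, 9.87 and 8.83 in group D. Group A read 8.95, 8.75 and 8.99, group B 8.38, 8.66 and 8.54, and group C 8.32, 8.12 and 8.22. Group A overlapped with group D through replicate 3 of group D, while groups B and C lay below all of it. The log2 differences from group D were -0.41 ± 0.20 (SE, n = 3), -0.78 ± 0.20 and -1.09 ± 0.20 for groups A, B and C. The dimmer probe set (1370504_a_at) gave -0.12 ± 0.24, -0.82 ± 0.24 and -0.95 ± 0.24, and on it group B overlapped with group D as well. Without replicate 3 of group D the brighter probe set gave -0.65, -1.02 and -1.33, and the dimmer one -0.46, -1.16 and -1.29.

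S100b and Gfap overlapped between group D and each of the CLA groups. For S100b (1386903_at), group A read 7.86, 7.50 and 8.14, group B 7.18, 7.71 and 7.27, group C 6.94, 7.18 and 7.62, and group D 7.20, 7.66 and 8.26. The log2 differences of S100b from group D were 0.13 ± 0.27 (SE, n = 3), -0.32 ± 0.27 and -0.46 ± 0.27. Without replicate 3 of group D they were 0.40, -0.05 and -0.18, so their size rests on that array. For Gfap (1368353_at), group D read 3.94, 4.30 and 3.85, group A 4.24, 4.23 and 3.56, group B 4.24, 3.45 and 2.77, and group C 3.88, 3.88 and 3.23. Its differences were -0.02 ± 0.44 (SE, n = 3), -0.55 ± 0.44 and -0.37 ± 0.44, and -0.11, -0.63 and -0.46 without that array. The highest S100b array of all was replicate 3 of group D, the array whose smooth muscle score was low.

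**Figure D1:**
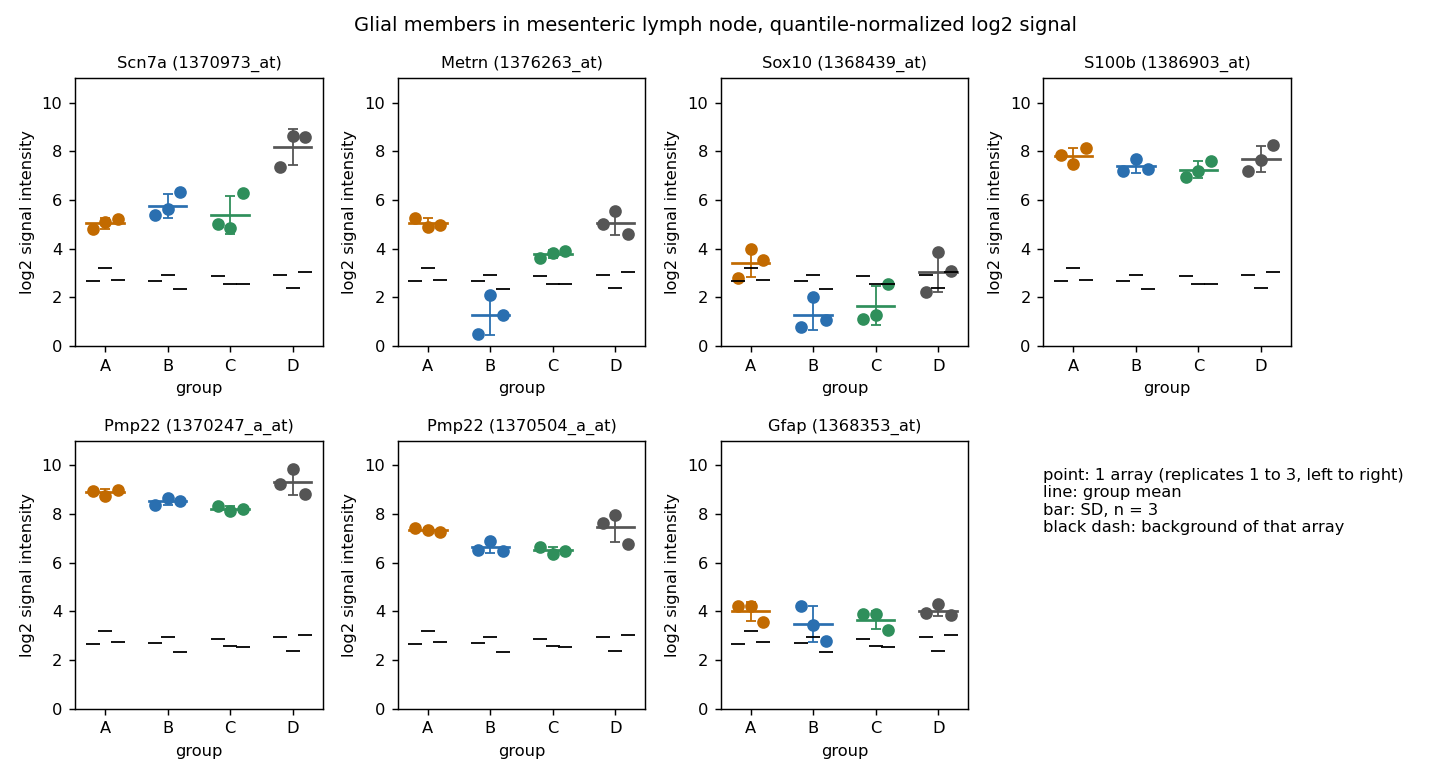
Log2 signal of the 7 probe sets (y axis) in groups A, B, C and D (x axis), with 1 point per array, the group mean as a line, the SD (n = 3) as a bar and the background of each array as a black dash. Scn7a lies between 4.81 and 6.32 in groups A, B and C and between 7.35 and 8.65 in group D, and all 3 points of Metrn in group B lie under their background dashes.

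Over the 6 genes, the median log2 difference from group D was -0.02, -1.27 and -1.19 for groups A, B and C, beside 0.15, -0.11 and -0.12 for all 14217 genes. With Metrn and Sox10 of group B at their bounds, the median of group B was -0.66. Without replicate 3 of group D the medians were -0.18, -1.38 and -1.36. In group A, 1 of 6 genes lay below every array of group D, Scn7a, where 15.9% of all genes did. In group B this held for 4 of 6, Scn7a, Metrn, Sox10 and Pmp22, where 10.3% of all genes did, and in group C for 3 of 6, Scn7a, Metrn and Pmp22, where 10.7% did. Scn7a alone was below group D in all 3 CLA groups at once, a pattern that 144 genes, 1.01%, shared. Since the members were picked on differences from group D, nothing is read from these counts. The comparisons of groups A, B and C share the 3 arrays of group D.

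**Figure D2:**
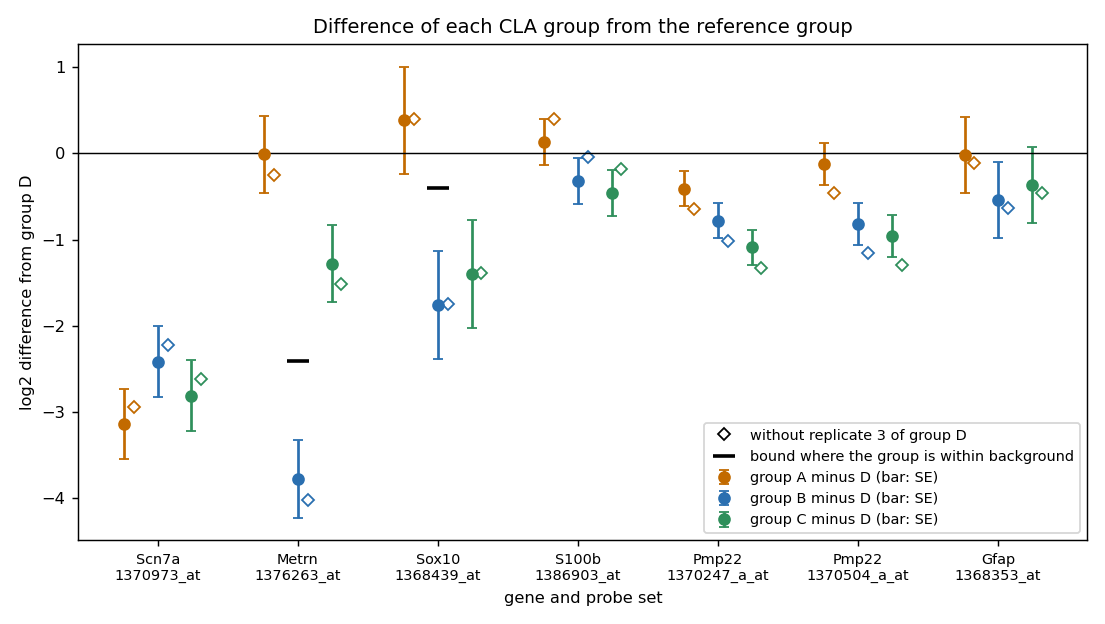
Log2 difference of groups A, B and C from group D (y axis) for each gene and probe set (x axis), with the SE of the fit as a bar, open diamonds for the difference without replicate 3 of group D, and black dashes for the bound where a group was within background. Scn7a is more than 2 log2 units below group D in the 3 CLA groups, while Metrn is at -0.01 in group A and -1.28 in group C.

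Group A, which received CLA through milk, was also set beside the gavaged groups B and C, again with no test for the members. Metrn was at least 5.27-fold higher in group A than in group B, where it was within background, and stood 1.27 log2 units above group C. Sox10 was at least 1.72-fold higher in group A than in group B, and no difference is given from group C, where 1 of 3 arrays was above background. The log2 difference of group A from the mean of groups B and C was 0.52 ± 0.17 (SE) for the brighter and 0.77 ± 0.21 for the dimmer probe set of Pmp22, 0.52 ± 0.23 for S100b and 0.44 ± 0.38 for Gfap. For Scn7a it was -0.52 ± 0.36. The median over all genes was 0.32, so S100b, Gfap and the brighter probe set of Pmp22 stood little above it. The dimmer probe set of Pmp22 stood further above it. The arrays of group A lay above all 6 arrays of groups B and C for Metrn, Sox10 and both probe sets of Pmp22, as 33.8% of all genes did, and overlapped with them for Scn7a, S100b and Gfap.

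Groups B and C shared the gavage and differed in CLA during gestation. Metrn was at least 2.19-fold lower in group B than in group C, and its arrays did not overlap, as was so in this direction for 5.54% of all genes. Scn7a overlapped, with a log2 difference of group B from group C of 0.39 ± 0.41 (SE, n = 3). Both are descriptions, since their values in these groups led to their choice, and Sox10 was within background in all but 1 of these 6 arrays. For Pmp22, S100b and Gfap 0 probe sets passed an adjusted p under 0.05 in limma's test, where 0.00322% of all probe sets passed as higher and 0.0% as lower, and 0 had an unadjusted p under 0.05. The brighter Pmp22 probe set was higher in every array of group B than in group C, by 0.31 ± 0.20 (adjusted p = 1.0 in limma), as were 5.64% of all genes, and the dimmer one overlapped at 0.13 ± 0.24. S100b differed by 0.14 ± 0.27 and Gfap by -0.18 ± 0.44, each with an adjusted p of 1.0 in limma and with overlap.

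The sequences before the start of the gene are shown for Scn7a, Metrn and Pmp22, the members with the largest or most regular differences. They are from RefSeq on assembly GRCr8, 5′ to 3′, and end at the base before the first annotated base of the gene. Capitals mark matches to GCGTGGG (the core bound by EGR factors), CCAAT or GGAATG (the core bound by TEAD factors), on either strand.
Scn7a, chr3:71846455-71846534, minus strand: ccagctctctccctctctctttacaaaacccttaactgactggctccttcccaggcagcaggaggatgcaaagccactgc
Metrn, chr10:15323219-15323468, minus strand: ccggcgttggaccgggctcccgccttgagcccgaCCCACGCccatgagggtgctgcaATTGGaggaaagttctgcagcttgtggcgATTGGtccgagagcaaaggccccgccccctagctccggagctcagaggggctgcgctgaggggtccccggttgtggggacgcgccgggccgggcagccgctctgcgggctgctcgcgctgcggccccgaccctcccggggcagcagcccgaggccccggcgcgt
Pmp22, chr10:48294682-48294931, plus strand: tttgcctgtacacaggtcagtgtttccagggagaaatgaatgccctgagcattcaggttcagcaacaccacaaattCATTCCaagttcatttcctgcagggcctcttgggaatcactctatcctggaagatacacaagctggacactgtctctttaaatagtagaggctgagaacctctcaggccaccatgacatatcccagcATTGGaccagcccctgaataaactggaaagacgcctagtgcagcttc

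Motifs were searched on both strands of the 250 bases before the transcript start that the table lists, in the 6 members whose sequence was at hand, Cdh19 included, and in 33469 promoters of the same length. GCGTGGG was found in Metrn and Scn7a, 2 of 6, and in 3.68% of all promoters. The start listed lay inside the gene as annotated from an earlier start in 3 members, by 170 bases in Scn7a, 78 in S100b and 28179 in Cdh19, so the window of Cdh19 was not before its gene. In Scn7a the match lay 123 bases before the start listed, inside the gene, and thus outside the stretch shown. CCAAT was found in 4 of 6, Metrn, Pmp22, S100b and Cdh19, and in 34.0% of all promoters. GGAATG was found in Pmp22, and in 12.1% of all promoters. TATAAA was found in Cdh19, and in 12.9% of all. The SOX cores ACAAAG and ACAATG were found in 0 of 6 members and in 16.3% and 11.1% of all promoters, which says only that these letters are not in these windows.

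Other genes of glia were taken from 5 lists by role, of which 53 of 64 genes had a probe set and 41 were above background in at least 3 arrays. Of these 53 genes 4 fell and 5 rose in group A against group D, with limma's adjusted p under 0.05, 7.55% and 9.43%, where 12.0% of all genes fell and 16.0% rose. Both shares were below those of all genes. In group B 0 genes passed in either direction, where 0.0141% of all genes fell and 0.00703% rose, and in group C also 0, where 0.0352% fell and 0.00703% rose. With the values as deposited 4 fell and 1, Gfra3, rose in group A, where 9.64% of all genes fell and 1.84% rose. On those values 2 of 53 fell for group B and 21 of 53 for group C, where 0.499% and 35.0% of all genes fell. At an unadjusted p under 0.05 in limma, 14 fell and 0 rose in group B, 26.4% of the list against 10.5% of all genes, and 16 fell and 1 rose in group C, 30.2% against 12.2%. Of all genes 6.47% rose at that p in group B and 7.42% in group C. Without replicate 3 of group D, 12 fell and 0 rose at an adjusted p under 0.05 in group B, where 12.8% of all genes fell and 7.15% rose. In group C 16 then fell and 1 rose, where 15.0% of all genes fell and 8.04% rose. The median log2 difference of the list was -0.11, -0.41 and -0.63 for groups A, B and C.

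Among the transcription factors of glia, 1 of 8 measured rose in group A against group D and 1 fell. Egr2 (Krox20), which switches on myelin genes in Schwann cells and is also induced in activated lymphocytes, rose by 0.75 ± 0.15 (SE, n = 3, adjusted p = 0.0031 in limma), from 6.69 to 7.13 in group D to 7.63 to 7.82 in group A. It differed from group D by -0.09 and 0.06 in groups B and C. A dimmer probe set of Egr2 went the other way, at -1.03 ± 0.80. Sox2, a factor of glial precursors, is the gene counted as lower, but its probe set was above background in 0 arrays of group A and 1 of group D, so no size is given. Nfatc4, a calcium-regulated partner of Sox10 in Schwann cells, was higher in group A than in groups B and C by 0.77 ± 0.21 (adjusted p = 0.011 in limma).

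Among 16 receptors and adhesion molecules, 3 rose in group A and 0 fell. Gfra3, the receptor subunit for artemin, read 7.51, 7.70 and 7.44 in group A and 6.47, 6.60 and 6.52 in group D, a rise of 1.02 ± 0.16 (SE, n = 3, adjusted p = 0.00081 in limma). Ngfr, the p75 neurotrophin receptor of non-myelinating Schwann cells and of follicular dendritic cells, rose by 0.90 ± 0.24 (adjusted p = 0.020 in limma), from 5.24, 5.71 and 5.03 in group D to 6.14, 6.26 and 6.29 in group A. In groups B and C Ngfr was 4.39 to 4.88, with differences from group D of -0.68 and -0.67 that did not pass adjustment in limma (adjusted p = 0.231 and 0.200). They were -0.83 and -0.81 without replicate 3 of group D and passed, at adjusted p of 0.035 and 0.034 in limma. Dag1, the dystroglycan that anchors cells to the basal lamina, rose by 0.65 ± 0.15 (adjusted p = 0.0083 in limma), and 3 other probe sets of it differed by 0.02 to 1.21. Without replicate 3 of group D the brightest probe set of Dag1 was lower in groups B and C, at -0.53 and -0.50 (adjusted p = 0.0023 and 0.0028 in limma). The neuregulin receptor Erbb3 differed from group D by -0.60, 0.12 and -0.94 (groups A, B and C), and L1cam, an adhesion molecule of axons and non-myelinating Schwann cells, by -1.06, -0.14 and -0.13, and neither passed the test.

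Among 9 ligands and secreted factors, 2 fell in group A and 0 rose. Cntf, the ciliary neurotrophic factor kept in Schwann cells, read 3.99, 3.62 and 4.25 in group A and 4.90, 5.09 and 5.59 in group D, a fall of 1.24 on the log2 scale (SE 0.26, n = 3, adjusted p = 0.0048 in limma). In groups B and C it was 5.45 to 6.03, so that group A stood alone at the low end. Without replicate 3 of group D, Cntf was higher in group C than in group D, at 0.94 (adjusted p = 0.021 in limma). Matn2, a matrix protein on which axons grow, fell by 0.80 on the log2 scale in group A (SE 0.18, adjusted p = 0.0070 in limma), and without replicate 3 of group D it was lower in groups B and C as well, at -0.63 and -0.85 (adjusted p = 0.010 and 0.0015 in limma). Dhh, the hedgehog ligand by which Schwann cells direct the perineurium, and Lgi4, a ligand that Schwann cells secrete for their own myelination, are named here after their values were seen, as the smallest p-values in group B. Dhh was 2.93, 3.16 and 3.88 in group B and 5.36, 5.99 and 4.35 in group D, a difference of -1.91 ± 0.44 (SE, n = 3) with an adjusted p of 0.166 in limma. It was -2.35 without replicate 3 of group D (adjusted p = 0.0019 in limma) and -2.41 as deposited (adjusted p = 0.048). Lgi4 differed by -1.66 ± 0.38 in group B and -1.88 in group C, with adjusted p of 0.166 and 0.113 in limma, and without replicate 3 of group D the same differences were -1.86 and -2.08 with adjusted p of 0.0086 and 0.0040.

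Of 12 myelin genes, 1 rose in group A and 0 fell. Cnp, an enzyme of myelin that other cells make too, rose by 0.68 ± 0.14 (SE, n = 3, adjusted p = 0.0037 in limma), from 9.18 to 9.40 in group D to 9.83 to 10.19 in group A. Mbp, whose gene also gives products in lymphocytes, differed by 0.40 ± 0.16, -0.04 and -0.03 in groups A, B and C on its brightest probe set. None of these passed the test with all arrays kept. Without replicate 3 of group D this probe set was at 0.57 in group A and passed (adjusted p = 0.012 in limma). Another probe set of Mbp differed by -0.49, -1.33 and -1.09 with all arrays kept.

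Of 8 genes of non-myelinating and enteric glia, 1 fell in group A and 0 rose. Art3, a surface protein of the ADP-ribosyltransferase family, read 5.71, 5.18 and 4.98 in group A. Group B read 5.26, 6.04 and 6.11 and group C 4.93, 5.60 and 5.27, against 6.58, 7.01 and 6.97 in group D. The fall in group A was 1.56 on the log2 scale (SE 0.28, n = 3, adjusted p = 0.0020 in limma), and the differences in groups B and C were -1.05 and -1.58 with adjusted p of 0.196 and 0.080 in limma. Both passed without replicate 3 of group D, at -0.99 and -1.52 (adjusted p = 0.047 and 0.0048 in limma), as they did with the values as deposited (0.045 and 0.0048). Art3 was, with Lgi4 and Matn2, 1 of 3 genes of the 53 that lay below every array of group D in all 3 CLA groups, as Scn7a did, 5.66% where 1.01% of all genes did. Among the 53 genes it was close to Scn7a also in that replicate 3 of group D stayed as high as the others. Fabp7, a fatty acid binding protein of enteric glia, was above background in 0 arrays. Gap43 and Cryab, which the study itself had selected on these samples, did not pass with all arrays kept. Without replicate 3 of group D, Gap43 differed by -2.27, -3.12 and -2.35 and Cryab by -1.15, -1.88 and -2.00 in groups A, B and C. Gap43 was above background in 1 array of group B.

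**Figure D3:**
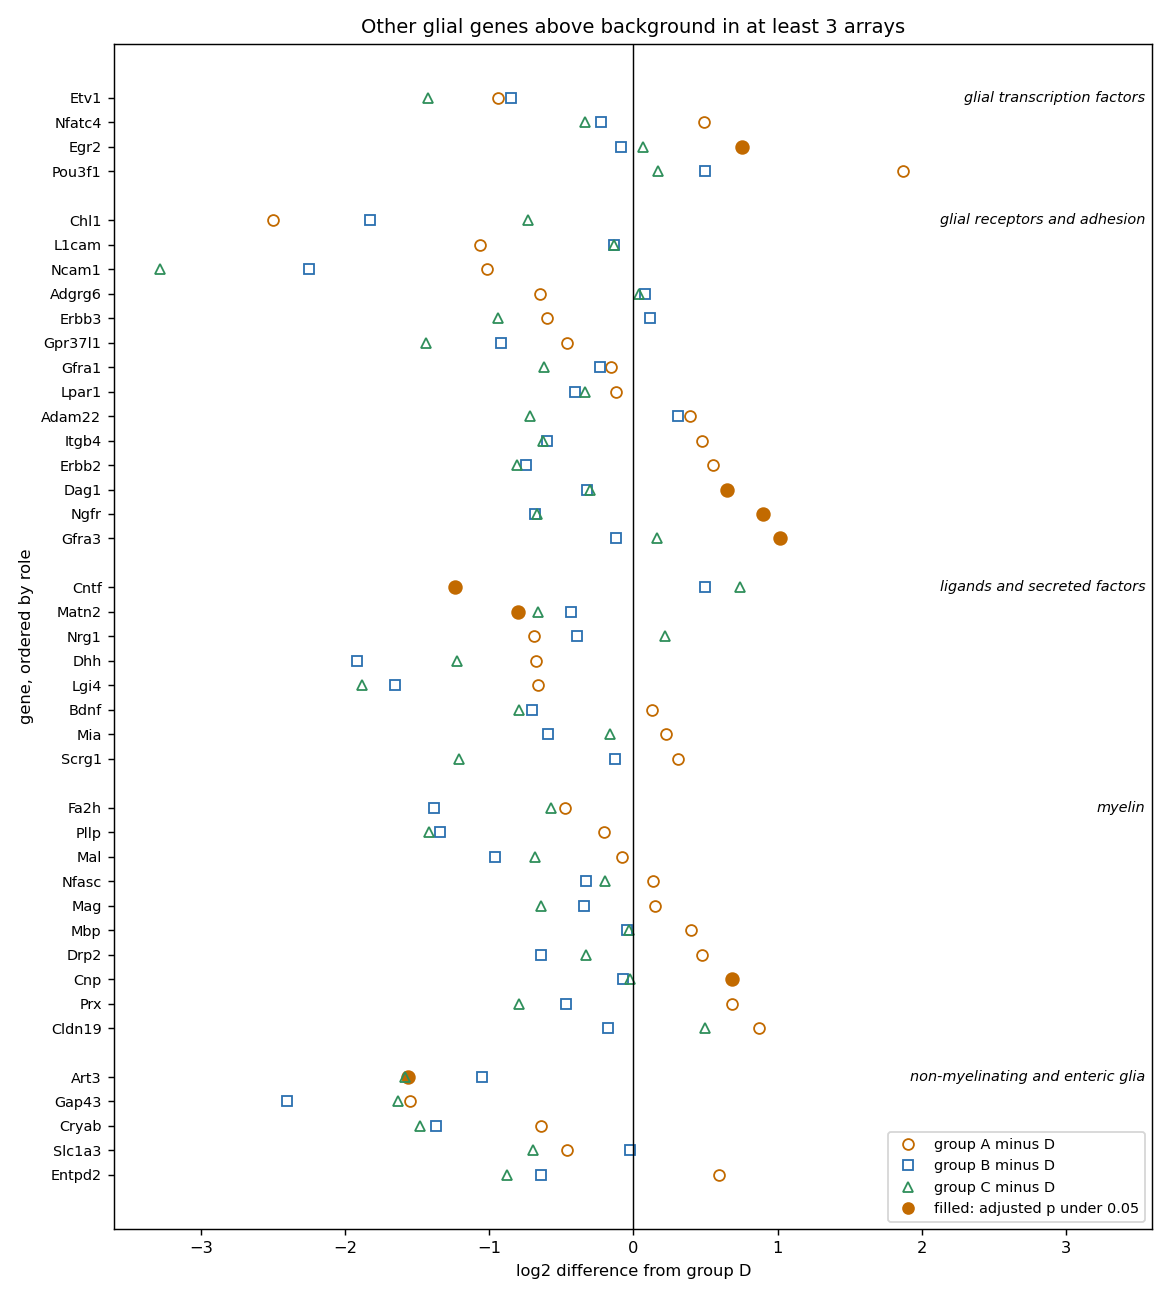
Log2 difference from group D (x axis) of the 41 other glial genes above background in at least 3 arrays (y axis, ordered by role), for groups A (circles), B (squares) and C (triangles), filled where the adjusted p was under 0.05. Filled circles lie on both sides of 0, with Art3 at -1.56 and Gfra3 at 1.02, and no symbol of group B or C is filled.

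Between group A and the gavaged groups, 12 of the 53 genes were higher in group A and 2 lower at an adjusted p under 0.05 in limma, 22.6% and 3.77%, where 31.6% of all genes were higher and 16.9% lower. The 2 lower genes were Cntf, by 1.86 ± 0.22 (SE, adjusted p = 4.9e-05), and Adgrg6, the adhesion receptor that starts myelination, by 0.71 ± 0.20 (adjusted p = 0.012), or 0.42 with the values as deposited (adjusted p = 0.200). Among the higher genes Ngfr stood 1.57 ± 0.21 above groups B and C (adjusted p = 0.00010), Entpd2, an ectonucleotidase of non-myelinating glia, 1.35 ± 0.18 (adjusted p = 0.00011), Prx (periaxin of myelinating Schwann cells) 1.31 ± 0.29 (adjusted p = 0.0032), Gfra3 1.00 ± 0.14 (adjusted p = 0.00013), Itgb4, a laminin receptor subunit, 1.09 ± 0.22 (adjusted p = 0.0017) and Dag1 0.96 ± 0.13 (adjusted p = 0.00010), all in limma. Egr2, Cnp, Nfatc4, Lgi4 and Mbp were also higher, by 0.44 to 1.11. Ncam1 was called higher as well, but was above background in 2, 1 and 0 arrays of groups A, B and C. In group D it was above background in 3 arrays, and group C lay at least 2.82-fold lower (adjusted p = 0.099 in limma). Without replicate 3 of group D that difference passed (adjusted p = 0.0087 in limma). Its other probe sets were above background in 1 and 2 arrays of group D.

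Relatives of the members by sequence family were also described. Of 28 paralogs, 25 had a probe set and 22 were above background in at least 3 arrays. In group A 4 rose and 0 fell against group D with limma's adjusted p under 0.05, beside 16.0% and 12.0% of all genes, and 0 passed in groups B and C, where 8 fell and 1 rose of the 25 in each at an unadjusted p under 0.05 in limma, beside 10.5% and 12.2% of all genes lower and 6.47% and 7.42% higher. Without replicate 3 of group D, 4 fell and 1 rose in group A, beside 13.4% and 14.6% of all genes. Then 8 fell and 0 rose in each of groups B and C, where 12.8% and 15.0% of all genes fell and 7.15% and 8.04% rose. The 1 that rose was Scn8a, above background in 1 array of group A and 0 of group D, and the 4 risers of the full set, named next, did not pass without that array, at adjusted p of 0.052 to 0.076 in limma. For Metrnl, the paralog of Metrn, group A read 7.29, 7.46 and 7.32, group B 6.02, 6.16 and 6.07, group C between 5.96 and 6.48, and group D 6.91, 6.85 and 6.04. It rose by 0.76 ± 0.22 in group A (SE, n = 3, adjusted p = 0.030 in limma) and did not pass in groups B and C at -0.52 and -0.45, which without replicate 3 of group D became -0.80 and -0.73 and passed (adjusted p = 0.0053 and 0.0079), and it stayed above background in all 12 arrays. Emp2 and Emp3, of the family of Pmp22, rose by 0.50 ± 0.16 and 0.47 ± 0.13 in group A (adjusted p = 0.043 and 0.022 in limma), where Pmp22 itself read -0.41. A dimmer probe set of Emp2 was at 0.14 in group A. Emp1, of the same family, was at -0.19 in group A on its brighter probe set. Its dimmer one was at -2.00 (adjusted p = 0.039 in limma), above background in 2 arrays of group A. S100a13 rose by 0.41 ± 0.12 (adjusted p = 0.031 in limma). Of the 8 other sodium channel genes measured, 0 passed against group D with all arrays kept. Scn4a, called lower in group A than in groups B and C, was above background in 0 arrays of group A, 1 of group B and 3 of group C. Only a bound is given for it, at least 1.24-fold lower in group A than in group C. Of the 25 paralogs 0 lay below group D in all arrays of the 3 CLA groups, as Scn7a and 1.01% of all genes did.

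The genes most like each member over the 12 arrays were ranked by Pearson's r among 13088 genes above background in at least 3 arrays, as a description only, since the arrays share their groups. Scn7a was most like Tspan8 (r = 0.94), a tetraspanin of digestive epithelia, Clmp (0.92) and Agr2 (0.91), a protein of mucus-secreting epithelia. Agr2 read 4.69, 5.75 and 5.91 in group D and 3.43 to 4.17 in groups A, B and C, so that, as for Scn7a, replicates 2 and 3 of group D were the highest. Metrn was most like Pdgfrl, Eva1a and Hcn3 (0.93, 0.93 and 0.92), and Sox10 most like Tst, Col5a3 and LOC102546740 (0.91, 0.89 and 0.89). Pmp22 was most like Col14a1 (0.97), a fibril-associated collagen, Htra3 (0.95) and Igf2 (0.95). S100b was most like Gpt, Rbp4 and Tob1 (0.89, 0.87 and 0.86), and Gfap like Cyp4a3, Dmac2l and Neurl2 (0.90, 0.89 and 0.88). The mean of the centred members was most like Col1a1 (0.95), which read 8.97 to 9.80 in groups B and C, 10.43 to 10.45 in group A and 10.18 to 11.27 in group D. The next 9 were Vil1, Ergic1, Mfap5, Mfap4, Slc41a2, Ldb3, Ass1, Neurl1 and Hey2, with r between 0.88 and 0.93. None of the 3 genes listed for 1 member was listed for another.

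Markers of other cell types also differed between the arrays. All 9 smooth muscle markers and all 14 peripheral neuron markers measured were above background in at least 3 arrays. For smooth muscle the summed linear level ran from 2323 to 2441 (group A), 1470 to 1739 (B), 1308 to 1595 (C) and 1657 to 9480 (D). For neurons it ran from 243 to 258, 159 to 168, 166 to 223 and 154 to 611. The scores of both lists were high in replicates 1 and 2 of group D and low in replicate 3, at 1.36, 1.34 and -0.36 for neurons. Pmp22 shared this split within group D, with 9.23 and 9.87 in replicates 1 and 2 and 8.83 in replicate 3. Scn7a did not share it, as its level was 8.57 in replicate 3.

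A list of 12 gut epithelium markers was added after these values were seen, and 11 of them were above background in at least 3 arrays. Its summed level ran from 179 to 238 (group A), 116 to 176 (B), 140 to 191 (C) and 217 to 925 (D). Its score within group D was -0.05, 1.22 and 2.22 in replicates 1, 2 and 3, where Scn7a read 7.35, 8.65 and 8.57. The score was highest in the replicate with little smooth muscle signal. In group A the score was 0.32 and 0.01 in replicates 1 and 3, above replicate 1 of group D. Scn7a read 4.81 and 5.24 in those arrays and 7.35 in replicate 1 of group D. The scores of the other arrays of groups A, B and C lay between -0.90 and -0.10. Vil1 (villin), which was among the genes most like the mean of the members, read 3.41, 4.39 and 4.85 in group D. The summed level of 7 mesothelium markers was 522 to 959 in group D and 217 to 364 in the other groups, and that of 7 fibroblast markers 8122 to 13432 in group D and 6677 to 9090 in the others. Of 5 melanocyte markers, another lineage that uses Sox10, Tyr and Mlana were above background in 0 arrays. The part of these cell types in the levels of Scn7a, Pmp22, Metrn and Sox10 was not tested.

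**Figure D4:**
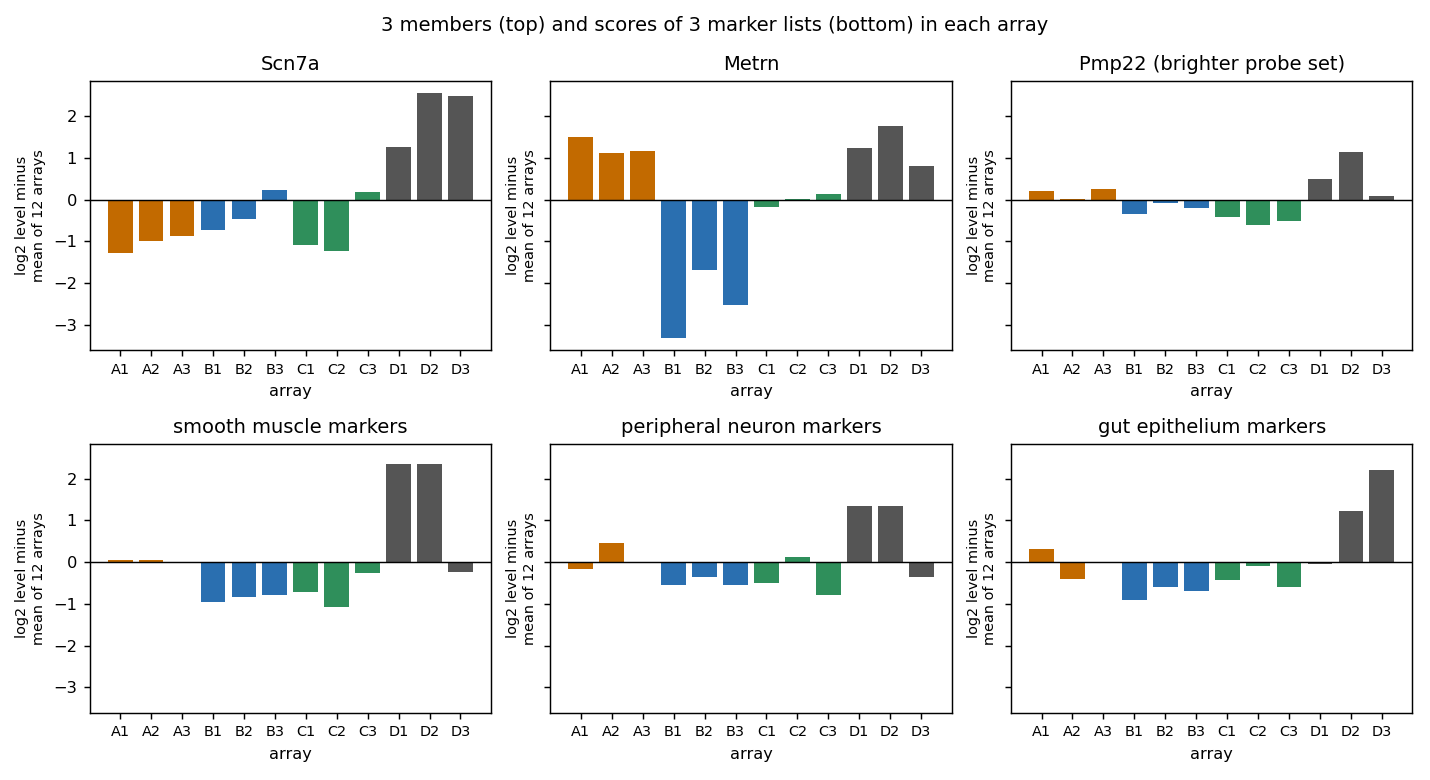
Log2 level of Scn7a, Metrn and Pmp22 minus its mean over 12 arrays (top row) and scores of smooth muscle, peripheral neuron and gut epithelium markers on the same scale (bottom row), with 1 bar per array (x axis, group letter and replicate number). In replicate 3 of group D the smooth muscle and neuron scores are -0.22 and -0.36 and the gut epithelium score is 2.22, while the bar of Scn7a stays high.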

How the data were processed

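The authors extracted total RNA from MLN, hybridized it to the arrays and made the deposited values with MAS5 (version not given in the sources used). The deposited unit is a linear signal intensity per probe set and array, without scaling between arrays. The file holds 31099 probe sets in 12 columns. Its 30 zeros took the smallest positive value, log2 values were quantile normalized over all probe sets, and intensities under 1 were raised to 1. Quantile normalization was made the main setting in an earlier analysis of these data after its results had been seen. The 57 control probe sets were left out.

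Groups were compared in R 4.3.3 by limma 3.58.1, fitting 1 mean per group, moderation with a trend of the variance and a two-sided test, adjusted by Benjamini-Hochberg over 31042 probe sets. An exact permutation test of 3 arrays against 3 cannot give a p below 0.1, and the number of arrays limits the precision. The script was tested on simulated data. Each of 14217 genes was represented by its brightest probe set on average. Of the probe sets, 20826 carry 1 symbol, 436 several and 9780 none, and symbols were updated by gene number against RefSeq of GRCr8.

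The members, lists and motifs were chosen with earlier results of these data known. Gap43, Cryab, Des and Prph, and in its further lists Scn7a and Pmp22, were among genes the study itself had selected on these samples. So were the smooth muscle markers Actg2, Acta2, Myh11, Cnn1, Tagln, Myl9 and Mylk. The same holds for the mesothelium markers Msln, Krt8, Krt19 and Upk1b and the neuron markers Gal and Stmn2. The direction of all these genes, and of the lists that hold them, is therefore not independent evidence. Named genes were all members, the other glial genes and paralogs past an adjusted p under 0.05 in a comparison with group D or of group A with groups B and C, at most 12 per comparison, genes named in advance by role, and for likeness the 10 genes nearest the member mean and the 3 nearest each member. The lists cover glial transcription factors, receptors and adhesion, ligands and secreted factors, myelin, non-myelinating and enteric glia, paralogs, and markers of peripheral neurons, smooth muscle, adipocytes, fibroblasts, mesothelium, melanocytes, endothelium and lymphocytes. The summed linear level of adipocyte markers was 3591 to 4493 (group A), 4033 to 6464 (B), 3211 to 4566 (C) and 4729 to 6981 (D), that of endothelium markers 1258 to 1347, 1179 to 1295, 1105 to 1262 and 1058 to 1476, and that of lymphocyte markers 6135 to 7419, 8114 to 8422, 8466 to 9051 and 6590 to 8367.

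Alternatives were a floor of 32, deposited values with no normalization, 75th percentile centring, removal of the dimmest 40% of probe sets, no trend, a fit of only the groups compared, the median over all probe sets of a gene, an unadjusted p under 0.05 with a fold of 2, a replicate block, and leaving out each array. Members at their bound, genes above background alone and the gut epithelium list were added after seeing the data.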

Additional observations from a re-analysis of the deposited data

How the results depend on the processing

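With values as deposited the median log2 difference of all genes from group D was -0.02, -0.65 and -0.80 in groups A, B and C, and the medians of the members were -1.81 in group B and -1.88 in group C. Other glial genes then numbered 1 higher in group A, 2 lower in group B and 21 lower in group C against group D, and 1 lower and 18 higher in group A against groups B and C. The shares of all genes were then 1.84%, 0.499%, 35.0%, 7.05% and 40.6%. Paralogs numbered 0 higher in group A, 15 lower in group C, and 0 lower in group A against groups B and C. At a floor of 32 the medians of the members were -0.26 in group B and -0.33 in group C. Sox10 and Gfap lie under this floor in every array, and Metrn and Scn7a in some. There were then 2 other glial genes lower and 2 paralogs higher in group A, beside 10.1% and 15.4% of all genes. In group A against groups B and C 0 paralogs were lower, beside 15.0% of all genes. Leaving out the dimmest 40% of probe sets removed members and gave medians of -0.41 in group A and -0.78 in group B. Again 0 paralogs were lower in group A against groups B and C, beside 23.6% of the genes kept. Taking members at their bound, the median of group B was -0.66. A fit of only the groups compared gave 2 other glial genes lower and 3 higher in group A and 0 paralogs higher, and no trend gave 0 paralogs higher. By a fold of 2 with an unadjusted p under 0.05, other glial genes numbered 2 higher in group A, 7 lower in group B and 8 lower in group C. The share of all genes under this rule was not computed, so nothing is read from these counts.

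Leaving out 1 array at a time, other glial genes numbered 3 to 6 lower and 4 to 7 higher in group A, 0 to 12 lower and 0 to 0 higher in group B, 0 to 16 lower and 0 to 1 higher in group C, and 1 to 3 lower and 9 to 17 higher in group A against groups B and C. The counts above 0 in groups B and C arose only without replicate 3 of group D, and the count of 1 lower without replicate 2 of group A. Paralogs numbered 0 to 4 lower and 0 to 4 higher in group A, 0 to 8 lower and 0 higher in each of groups B and C, and 1 lower and 6 to 10 higher in group A against groups B and C. Without replicate 3 of group D, 13.4%, 12.8% and 15.0% of all genes fell in groups A, B and C, and 14.6%, 7.15% and 8.04% rose. In group A against groups B and C 18.3% were then lower and 35.2% higher. The shares without each other array were not computed, so nothing is read from these ranges of counts. The paralogs higher in group A numbered 1 without replicate 1 or 3 of group A or replicate 3 of group D, and 0 without replicate 2 of group A, while the counts lower against group D arose only without replicate 3 of group D. The medians of the members lay between -0.18 and 0.11 (group A), -1.50 and -0.93 (B) and -1.36 and -0.90 (C), so the sign in group A rests on single arrays. Between groups B and C 0 probe sets of Pmp22, S100b and Gfap passed in any alternative.

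The main fit did not take the replicate numbers as pairs of arrays, and the correlations below do not settle whether they are. Of 18 pairs of arrays with the same number 0 deviated together with r over 0.1, the highest being 0.083, although 9 of 12 arrays correlated best with their own number. A replicate block gave 5 other glial genes lower and 6 higher in group A, beside 12.3% and 16.2% of all genes. It gave 0 in groups B and C, where 0.0211% and 0.0563% of all genes fell and 0.00703% rose in each. In group A against groups B and C it gave 15 other glial genes higher and 2 paralogs lower, beside 31.6% and 16.9% of all genes. It changed no other count by over 1.5 times. The cause of these shifts was not tested. Metrn in group B, Sox10 and Gfap lie at or near background, which limits what their differences can show.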
